A study of Homo sapiens with 6 samples.

Results

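The sh50 hairpin was compared with the shGFP hairpin in U87MG cells, a human glioblastoma line that grows as an adherent culture. The series title names SAT1, the acetyltransferase that starts the breakdown of the polyamines spermidine and spermine. Arrays labelled sh50 1 and sh50 2 were set against arrays labelled shGFP 1 and shGFP 2, which makes 4 of the 6 arrays of the series. The other 2 arrays, of a hairpin called sh52, entered the estimate of the spread and are used below for the genes named here. Cells of each group carried a lentivirus with a short hairpin RNA, had passed drug selection and were then grown for 5 days. The control hairpin is named for GFP, a fluorescent protein gene that human cells lack, and the design text gives a clone but no target for sh50. All arrays are of the same cell line, and nothing in the labels says whether arrays 1 and 2 of a group came from separate infections. The p-values below therefore measure only how far these samples spread, and that spread may be technical. With 2 arrays a group, precision is low throughout.

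Features of the array that stand for whole transcripts, called transcript clusters, had to reach a mean over the 6 arrays no lower than the median of all such features. Of 67528, 33764 did. The lowest mean kept was 3.98398 and the highest left out 3.98393, on the log scale of the deposited values, whose base is taken as 2. Each gene was read from its brightest kept feature with that symbol alone, which gave 14376 genes. Values are log2 expression values throughout, differences are sh50 minus shGFP, and any fold holds for base 2. The median over all features lay between 3.98 and 4.12 on the 6 arrays. Every gene has a pair of same-number differences, sh50 1 minus shGFP 1 and sh50 2 minus shGFP 2, given in that order.

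A dividing cell makes the transcripts of DNA replication mainly around the start of S phase and those of mitosis in G2 and M phase. Activator proteins of the E2F family act on the promoters of the first group. The second group often carries a short element called CHR, the cell cycle genes homology region, together with CCAAT boxes, to which the DREAM and MuvB complexes and the factor NF-Y bind. In glioblastoma, such proliferation genes vary between tumours and between cell states, as do the genes of a mesenchymal state with secreted matrix and complement proteins.

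SAT1 was read first. It stood at 9.36 and 8.35 on the arrays labelled sh50 1 and sh50 2, against 9.45 and 8.96 on shGFP 1 and shGFP 2. The first array labelled sh50 lay between the controls and the second below both. Its same-number differences were -0.08 and -0.62, and limma gave a mean difference of -0.35 ± 0.96 (SE, adjusted p = 0.982), with a 95% interval of -2.73 to 2.03. A lower SAT1 level on the sh50 arrays was thus not shown, and the directions below go by the labels.

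No transcript cluster passed limma's test at an adjusted p of 0.05 (0 of 33764, 0%), and the smallest adjusted p was 0.475. At an unadjusted p under 0.05 the count was 2784 (8.25%), of which 1370 were higher and 1414 lower on the arrays labelled sh50. Counted by gene, 765 of 14376 (5.32%) had such a p and a higher mean, and 718 (4.99%) a lower one. Both sh50 arrays lay above both shGFP arrays for 3130 genes (21.8%) and below both for 3176 (22.1%). Both same-number differences were above 1 for 127 genes (0.883%) and below -1 for 121 (0.842%). Since no gene was called, the words higher and lower describe where the arrays lay.

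The pair of same-number differences had the same sign in 63.3% of genes, positive in 4704 and negative in 4399. The difference of the number 2 arrays was the wider, with an SD over genes of 0.542, against 0.417 for number 1. Genes beyond 1 in size numbered 1002 in number 2 and 477 in number 1. Over all genes the median was -0.005 in number 2 and 0.02 in number 1, but RMA sets arrays to like distributions, so these medians cannot show whether a pair was displaced. The mean of 8 spike-in controls was 9.26 and 9.26 on sh50 1 and sh50 2, against 9.25 and 8.88 on shGFP 1 and shGFP 2, and its part in the results was not tested. Within the groups, 626 genes differed by more than 1 between sh50 1 and sh50 2, and 397 between shGFP 1 and shGFP 2.

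**Figure D1:**
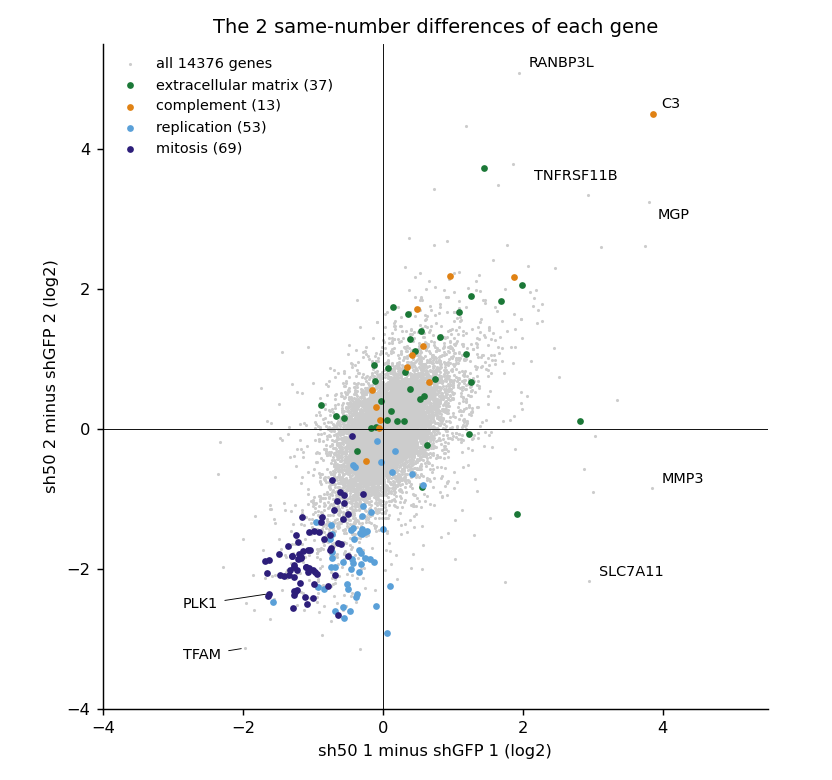
Each point is 1 of the 14376 genes, placed by the difference sh50 1 minus shGFP 1 (log2, horizontal) and sh50 2 minus shGFP 2 (log2, vertical), with measured members of 4 gene lists in colour. Mitosis genes lie in the lower left, with medians of -1.08 and -1.85, replication genes lie lower mainly along the vertical axis, and C3 stands farthest to the upper right at 3.86 and 4.51.

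Protein-coding genes whose sh50 arrays both lay above, or both below, both shGFP arrays were ranked by the smaller of their same-number differences. Absence of overlap was thus a condition of entry, not a result. On the higher side C3, the central protein of the complement cascade, came first. C3 stood at 12.35 and 13.39 on sh50 1 and sh50 2, against 8.49 and 8.89 on shGFP 1 and shGFP 2. The lowest sh50 array was far above the highest control, and the mean difference was 4.18 ± 0.44 (SE), or 18.1-fold (limma, adjusted p = 0.475). CFI, the protease that inactivates C3b, stood at 7.87 and 8.42 on the sh50 arrays, against 5.99 and 6.25 on the shGFP arrays. Its mean difference was 2.02 ± 0.34 (SE), so a complement protein and a regulator of it lay high on the same arrays.

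MGP, the matrix Gla protein that keeps soft tissue from calcifying, stood at 8.9997 and 7.51 with sh50, against 5.20 and 4.27 with shGFP. TNFRSF11B, the decoy receptor osteoprotegerin, stood at 8.72 and 8.70 with sh50, against 5.79 and 5.36 with shGFP. It had the smallest p of all higher genes (limma, 3.14 ± 0.27 SE, or 8.82-fold, unadjusted p = 3.62e-05, adjusted p = 0.475). For neither gene did the groups overlap, which the ranking required. TNFRSF21, the death receptor DR6, stood at 12.54 and 12.96 with sh50, against 10.54 and 10.90 with shGFP, and its differences of 2.00 and 2.06 were close to equal. LAMA4, a laminin chain of basement membranes, stood at 11.50 and 10.86 with sh50, against 9.50 and 8.80 with shGFP, with differences of 1.99 and 2.06. Each of these receptors and matrix genes lay higher by a similar amount in both pairs of arrays.

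TDO2, the dioxygenase that opens the tryptophan ring, stood at 10.26 and 11.90 with sh50, against 6.51 and 9.29 with shGFP. CPA4, a carboxypeptidase, stood at 10.45 and 11.58 with sh50, against 7.33 and 8.98 with shGFP. For these, number 2 was the higher array in both groups, so the controls themselves were spread. TP53INP1, a p53-induced nuclear protein, stood at 8.44 and 10.57 with sh50, against 5.98 and 8.27 with shGFP. DNAI3, of the dynein machinery of cilia, stood at 8.81 and 9.48 with sh50, against 6.63 and 7.50 with shGFP. In TP53INP1 the lower sh50 array cleared the higher control by little, while DNAI3 showed a gap of more than 1. SFRP2, a secreted modulator of Wnt signalling, stood at 9.67 and 8.99 with sh50, against 7.59 and 6.67 with shGFP. RANBP3L, which binds the GTPase Ran, stood at 7.55 and 12.37 with sh50, against 5.60 and 7.28 with shGFP. RANBP3L had the most uneven pair, with differences of 1.95 and 5.09 and an SE of 1.58 around a mean difference of 3.52. The 12 genes of this ranking had adjusted p-values between 0.475 and 0.639.

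The 12 lowest genes by the same ranking included at least 7 that act in cell division or are known to follow it. PLK1, the polo kinase of mitotic entry, stood at 12.53 and 11.57 on the sh50 arrays, against 14.16 and 13.92 on the shGFP arrays. Its mean difference was -1.99 ± 0.47 (SE), 3.97-fold lower. CCNB2, a mitotic cyclin, stood at 9.67 and 8.90 with sh50, against 11.35 and 10.79 with shGFP. CEP55, which organises the final cut between daughter cells, stood at 10.10 and 8.48 with sh50, against 11.74 and 10.87 with shGFP. CENPF, a kinetochore protein, stood at 11.64 and 10.44 with sh50, against 13.30 and 12.50 with shGFP. In these cyclin, cytokinesis and kinetochore genes the array labelled sh50 2 was the lowest of the 4. ASPM, a spindle pole protein, stood at 12.09 and 10.82 with sh50, against 13.72 and 12.70 with shGFP. FAM72C and FAM72D are near-identical copies whose probes may read each other, and they had mean differences of -1.97 ± 0.66 and -2.22 ± 0.84 (SE).

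The other 5 of the lowest genes are described by what each encodes, with no shared role assigned. TFAM, which packages mitochondrial DNA and starts its transcription, stood at 7.62 and 6.39 with sh50, against 9.59 and 9.52 with shGFP. Its mean difference of -2.55 ± 0.44 (SE), 5.87-fold lower, was the most negative of the 24 genes ranked by the smaller difference. DENND6A, an exchange factor for a Rab GTPase, stood at 7.88 and 7.48 with sh50, against 9.60 and 9.22 with shGFP, with nearly equal differences of -1.72 and -1.74. MICAL2, an actin-oxidising enzyme, stood at 10.98 and 9.82 with sh50, against 12.93 and 12.31 with shGFP. Both were well separated between the groups. DIAPH3, a formin that builds actin filaments, had differences of -1.69 and -2.13. GABRQ, a subunit of the GABA-A receptor, stood at 10.41 and 8.45 with sh50, against 12.69 and 10.43 with shGFP. GABRQ barely separated, because sh50 1 and shGFP 2 were nearly level. The 12 adjusted p-values lay between 0.475 and 0.629 (limma).

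**Figure D2:**
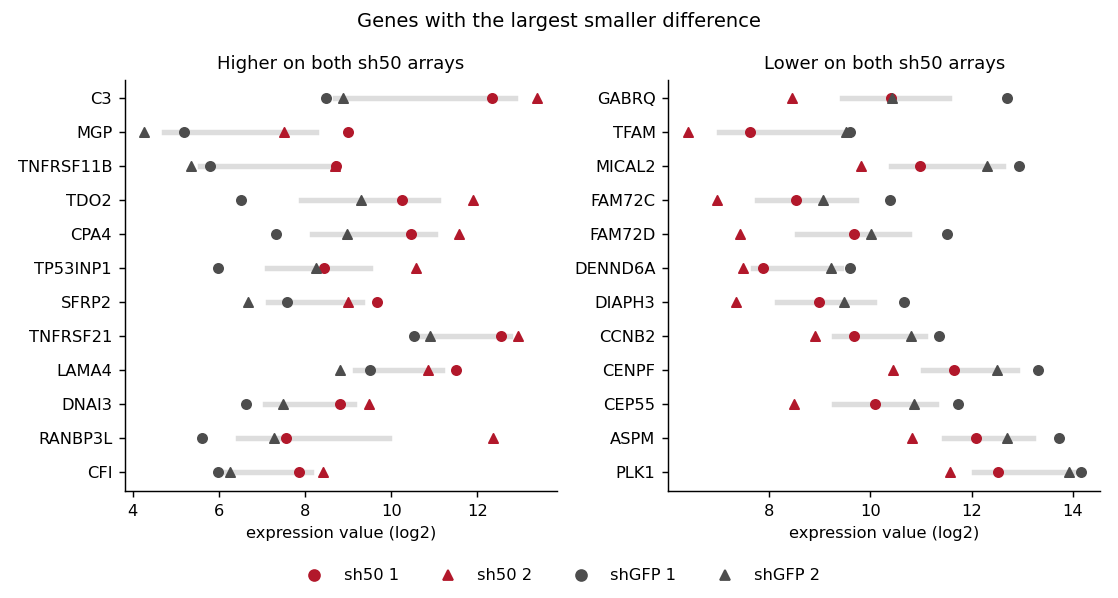
Expression values (log2, horizontal) of the 12 protein-coding genes each way with the largest smaller same-number difference, with sh50 in red and shGFP in grey, circles for number 1 and triangles for number 2. Grey bars join the group means. Genes whose groups overlap were left out of the ranking, so none of the 24 overlaps, and GABRQ nearly touches.

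Genes with the smallest limma p in each direction were also examined, each with an adjusted p of 0.475. PCDHGC5, a clustered protocadherin that shares exons with its neighbours, stood at 9.36 and 9.66 with sh50, against 7.96 and 8.10 with shGFP. PAMR1, a secreted protein with a peptidase-like domain, stood at 10.83 and 11.14 with sh50, against 9.45 and 8.94 with shGFP. Both joined TNFRSF11B, C3 and TNFRSF21 on the higher side. LIN7C, a scaffold of cell junctions, stood at 8.86 and 8.38 with sh50, against 10.45 and 10.48 with shGFP, and its mean difference was -1.84 ± 0.21 (SE). CERS6, a ceramide synthase, stood at 9.61 and 8.80 with sh50, against 11.17 and 11.24 with shGFP. SERTAD2, a transcriptional regulator, stood at 6.51 and 5.98 with sh50, against 7.91 and 7.78 with shGFP. For these lower genes the controls were close together and both sh50 arrays lay more than 1 below them. DENND6A and the linker histone gene H1-4 completed the 5 lower genes.

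Genes of mitosis and G2/M lay lower on the arrays labelled sh50 nearly without exception. Of 69 measured genes (70 in the list), 69 had a lower mean and 68 had both sh50 arrays below both shGFP arrays, beside 22.1% of all genes. None was called at an adjusted p of 0.05, and 62 had an unadjusted p under 0.05, beside 4.99% of all genes. The list's median level was 10.10 and 8.90 on sh50 1 and sh50 2, against 11.35 and 10.88 on shGFP 1 and shGFP 2. The median difference was -1.51, with -1.08 in number 1 and -1.85 in number 2, beside 0.0016 over all genes. In bulk RNA, fewer dividing cells and less of such RNA per dividing cell cannot be told apart. Both differences were below -1 in 41 members. SGO1, which guards the cohesion of sister centromeres, stood at 9.74 and 8.32 with sh50, against 11.02 and 10.88 with shGFP. Without sh50 2 the list median was -0.85 and without sh50 1 it was -2.08, so its size depended on the array while its direction did not.

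Genes of DNA replication were also lower, and here the array labelled sh50 2 stood apart. All 53 measured genes had a lower mean, 47 had both sh50 arrays below both controls (22.1% of all genes) and 30 had an unadjusted p under 0.05 (4.99% of all genes), with 0 called. The list's median level was 8.67 and 7.42 on sh50 1 and sh50 2, against 9.09 and 9.17 on shGFP 1 and shGFP 2. The median difference was -0.39 in number 1 and -1.77 in number 2. Without sh50 2 the median of the list was -0.45, against -1.07 with all arrays and -1.68 without sh50 1. DBF4, the partner that switches on the origin-firing kinase CDC7, was the exception in having a large difference in both numbers, at 8.96 and 7.90 with sh50, against 10.53 and 10.38 with shGFP. PRIM1, the catalytic primase subunit, stood at 9.08 and 7.54 with sh50, against 9.76 and 10.15 with shGFP. RFC3, a clamp loader subunit, stood at 9.44 and 7.47 with sh50, against 9.99 and 10.18 with shGFP. RFC4, another clamp loader subunit, stood at 9.37 and 8.04 with sh50, against 10.30 and 10.29 with shGFP. In the last 3 genes the number 1 difference was smaller than 1 in size and the number 2 difference larger than 2. The mean difference over the 4 genes ran from -2.02 ± 0.37 for DBF4 to -1.59 ± 0.42 (SE) for RFC4.

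DNA repair and histone genes followed the replication pattern. Of 32 measured repair genes 31 had a lower mean and 24 had both sh50 arrays below both controls, beside 22.1% of all genes, with medians of -0.44 and -1.38. HELLS, a chromatin remodeller, stood at 10.14 and 8.29 with sh50, against 10.89 and 11.03 with shGFP. POLQ, the polymerase of end joining through microhomology, stood at 8.20 and 6.64 with sh50, against 9.14 and 9.12 with shGFP. CLSPN, an adaptor of the replication checkpoint, and MMS22L, of fork repair, had differences of -0.57 and -2.59, and of -0.86 and -2.25. Each of the 4 was lowest on sh50 2. Of 46 histone genes 18 were measured, 17 with a lower mean, and 26 had no feature with their symbol alone. Among those measured 10 lay below both controls and 1 above, beside 22.1% and 21.8% of all genes. H1-4, a linker histone, stood at 13.63 and 13.25 with sh50, against 14.94 and 14.71 with shGFP. H2BC10 and H2BC11, which encode H2B, had differences of -0.65 and -1.93, and of -0.45 and -1.69. H2AC6, an H2A gene, was the single member on the other side, at 9.72 and 10.17 with sh50, against 7.82 and 9.003 with shGFP. Without sh50 2 the repair median was -0.41 in place of -0.98, and the histone median -0.34 in place of -0.78. Histone genes resemble each other closely, so their probes may read several copies.

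**Figure D3:**
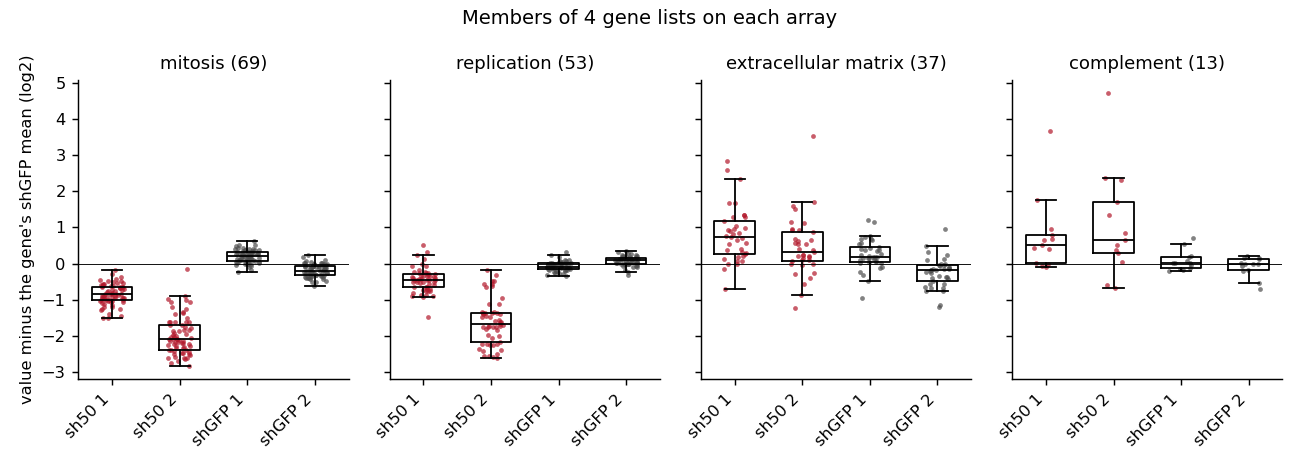
Each point is a gene of the mitosis, replication, extracellular matrix or complement list on 1 array, as its value minus the mean of its shGFP values (log2, vertical), with boxes for the quartiles. The box of sh50 2 lies lowest for mitosis and replication, while sh50 1 lies clearly lower for mitosis and only slightly lower for replication.

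Promoters of the lower genes were read for short elements, since members of the mitosis and replication lists lay low together. The windows ran from 250 bases before to 50 after the gene start in RefSeq (GRCh38.p14), and 10387 of the 14376 genes had one. The CHR was searched as TTTGAA or TTCGAA, the CCAAT box as CCAAT, and E2F elements as TTTGGCGC, TTTCGCGC or TTCCCGCC, on both strands, and no searched string contains another. The CHR letters were in 41 of 58 mitosis promoters (70.7%), 2 of 45 replication promoters (4.44%) and 12.03% of all. A CCAAT box was in 41 mitosis promoters (70.7%), 24 replication promoters (53.3%) and 36.7% of all. Both together were in 32 mitosis promoters (55.2%), against 5.15% of all. E2F letters were in 23 replication promoters (51.1%), 14 of 30 repair promoters (46.7%), 9 mitosis promoters (15.5%) and 6.84% of all. Of genes with both differences below -1, 45 of 101 promoters held the CHR letters (44.6%), against 11 of 81 (13.6%) for genes with both above 1. Both of these sets were chosen by the array values. Of the 121 genes in the lower set, 41 are members of the mitosis list, so its share is not separate from theirs. The letters in a list's promoters are the same whatever the arrays show. These are descriptions of letters in a window, and no factor was measured.

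The stretches below are the 120 bases just before the start of 4 mitosis genes and 2 replication genes, shown because they hold the CHR or E2F letters found in their lists. They were picked after the values were seen, from the members lowest in both numbers that hold the letters there. Capitals mark the CHR letters in the first 4 and the E2F letters in the last 2, in either orientation. CCNB2 lies at chr15:59105026-59105145 on the plus strand, with the match 29 bases before the start and 3 CCAAT boxes in lower case. CEP55 lies at chr10:93496492-93496611 on the plus strand, with the match 116 bases before the start and 1 CCAAT box. PLK1 lies at chr16:23678769-23678888 on the plus strand, with the match 29 bases before the start and 1 CCAAT box. ASPM lies at chr1:197146670-197146789 on the minus strand, with the match 113 bases before the start and 3 CCAAT boxes. RFC4 lies at chr3:186806483-186806602 on the minus strand and CDT1 at chr16:88803669-88803788 on the plus strand, with matches 10 and 24 bases before the start and no CCAAT box. CDT1, which loads the replicative helicase, stood at 6.34 and 5.68 with sh50, against 7.07 and 7.05 with shGFP.
CCNB2: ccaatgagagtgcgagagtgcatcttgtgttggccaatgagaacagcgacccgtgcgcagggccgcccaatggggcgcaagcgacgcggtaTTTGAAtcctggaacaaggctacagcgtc
CEP55: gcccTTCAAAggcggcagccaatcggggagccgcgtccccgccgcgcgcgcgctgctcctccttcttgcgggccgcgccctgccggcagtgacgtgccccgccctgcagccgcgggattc
PLK1: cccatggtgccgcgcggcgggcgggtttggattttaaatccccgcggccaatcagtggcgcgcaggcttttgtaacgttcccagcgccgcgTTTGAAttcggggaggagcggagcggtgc
ASPM: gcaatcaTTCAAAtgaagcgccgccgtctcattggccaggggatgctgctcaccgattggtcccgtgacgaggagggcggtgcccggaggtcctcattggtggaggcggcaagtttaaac
RFC4: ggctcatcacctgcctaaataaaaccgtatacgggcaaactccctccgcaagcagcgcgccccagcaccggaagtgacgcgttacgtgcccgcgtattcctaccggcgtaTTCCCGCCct
CDT1: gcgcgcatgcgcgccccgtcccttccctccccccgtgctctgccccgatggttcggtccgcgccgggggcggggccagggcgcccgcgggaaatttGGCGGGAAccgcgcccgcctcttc

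Extracellular matrix and complement genes lay on the higher side. Of 37 measured matrix genes 30 had a higher mean and 16 had both sh50 arrays above both controls, beside 21.8% of all genes, while 0 lay below both. Of these 7 had an unadjusted p under 0.05, beside 5.32% of all genes, and 0 were called. The list's median level was 10.23 and 9.57 with sh50, against 9.50 and 8.77 with shGFP, and its medians were 0.38 and 0.57. CHI3L1, a secreted glycoprotein of the mesenchymal glioblastoma state, stood at 8.91 and 10.76 with sh50, against 7.46 and 7.03 with shGFP. The mesenchymal markers VIM and CD44, given below, had lower means, with mean differences of -0.39 for VIM and -0.57 for CD44. COL1A2, a chain of type I collagen, stood at 14.54 and 14.38 with sh50, against 13.28 and 12.48 with shGFP. CCN2, a matricellular target of the YAP and TGF-beta pathways, stood at 11.71 and 9.57 with sh50, against 10.02 and 7.74 with shGFP. CHI3L1 and COL1A2 separated the groups, whereas sh50 2 lay under shGFP 1 for CCN2. The matrix median was 0.28 without shGFP 2 and 0.77 without shGFP 1.

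Of 22 complement genes 13 were measured, 11 with a higher mean, and 7 had both sh50 arrays above both controls, beside 21.8% of all genes. The medians were 0.42 and 0.89, and 4 members had an unadjusted p under 0.05, beside 5.32% of all genes (0 called). C5AR1, the receptor of the C5a fragment, stood at 5.62 and 7.19 with sh50, against 4.66 and 5.00 with shGFP. C1R, the first protease of the classical pathway, stood at 6.34 and 7.53 with sh50, against 5.86 and 5.82 with shGFP. Both were higher on sh50 2 than on sh50 1, as was C3. With no filter on dim features the complement median was 0.16, with 5 more members, all below the filter, included.

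Lysosomal genes lay higher more often than not. Of 34 measured, 26 had a higher mean, 15 had both sh50 arrays above both controls (21.8% of all genes) and 8 had an unadjusted p under 0.05 (5.32% of all genes). The medians were 0.40 and 0.21. SMPD1, the acid sphingomyelinase, stood at 11.93 and 12.27 with sh50, against 10.90 and 11.07 with shGFP. PSAP, the precursor of the saposins that assist lipid breakdown, stood at 14.50 and 14.95 with sh50, against 13.39 and 13.94 with shGFP. CTSD, an aspartic protease, stood at 14.13 and 14.75 with sh50, against 13.32 and 13.63 with shGFP. MAN2B1, a lysosomal mannosidase, had differences of 0.74 and 1.03. All 4 separated the groups, by mean differences between 0.89 and 1.12, though the list median was 0.11 without shGFP 1.

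Interferon response genes were split, with 22 of 34 measured genes higher on average, 9 above both controls and 3 below, beside 21.8% and 22.1% of all genes. The share above is close to that of all genes. SAMD9L, which restricts viral translation, stood at 10.62 and 10.96 with sh50, against 9.02 and 9.90 with shGFP. GBP2, an interferon-induced GTPase, stood at 7.54 and 8.45 with sh50, against 6.49 and 7.03 with shGFP. IFITM2 and IFITM3, which block viral entry and are close paralogs whose probes may overlap, had mean differences of 1.16 ± 0.28 and 1.10 ± 0.28 (SE). These 4 lay above both controls, while the list's medians were only 0.19 and 0.20. Among 32 inflammatory genes, 19 had a higher mean, 7 lay above both controls and the medians were 0.10 and 0.15. That count above is at the 21.8% of all genes. CCL2, the chemokine that draws monocytes, stood at 14.28 and 12.32 with sh50, against 11.83 and 11.16 with shGFP. TLR4, the lipopolysaccharide receptor, stood at 7.77 and 7.37 with sh50, against 6.60 and 6.38 with shGFP. IL11, a cytokine of the interleukin-6 family, stood at 9.01 and 5.04 with sh50, against 11.33 and 5.23 with shGFP. CSF3, the granulocyte growth factor, stood at 12.04 and 8.28 with sh50, against 13.45 and 9.34 with shGFP. IL11 and CSF3 differed more between numbers 1 and 2 than between the hairpins, and the inflammation median was 0.69 without sh50 2 and -0.35 without shGFP 2.

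Proteases and their inhibitors were uneven. Of 32 measured, 23 had a higher mean, 7 lay above both controls and 2 below, beside 21.8% and 22.1% of all genes, so the count above is at the share of all genes. MMP3, a matrix metalloprotease, stood at 13.75 and 11.49 with sh50, against 9.90 and 12.34 with shGFP. TIMP3, an inhibitor of such enzymes, stood at 9.06 and 9.03 with sh50, against 7.52 and 7.97 with shGFP. ADAMTS1, which cleaves proteoglycans, stood at 9.98 and 7.77 with sh50, against 10.84 and 10.72 with shGFP. TFPI2, an inhibitor of serine proteases, stood at 17.39 and 14.25 with sh50, against 17.74 and 16.60 with shGFP. TIMP3 was higher and ADAMTS1 lower on both sh50 arrays, whereas MMP3 and TFPI2 overlapped. Without sh50 1 the list's median was -0.036 and without sh50 2 it was 0.65.

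Among 35 receptors and growth factors, 13 lay above both controls and 7 below, beside 21.8% and 22.1% of all genes. TGFA, a ligand of the EGF receptor, stood at 9.12 and 9.05 with sh50, against 7.78 and 7.75 with shGFP. TGFB2, a transforming growth factor, stood at 10.54 and 11.02 with sh50, against 10.03 and 9.29 with shGFP. NRG1, a ligand of ERBB receptors, stood at 8.90 and 7.17 with sh50, against 9.68 and 8.64 with shGFP. INHBA, the activin subunit, stood at 8.67 and 4.79 with sh50, against 6.70 and 4.26 with shGFP. TGFA and TGFB2 thus lay higher on both sh50 arrays, while NRG1 and INHBA overlapped. Of 44 genes of hypoxia and glycolysis, 21 lay above both controls and 2 below, beside 21.8% and 22.1% of all genes, with medians of 0.19 and 0.26. Only 1 higher and 1 lower member had an unadjusted p under 0.05 (limma), beside 5.32% and 4.99% of all genes. ANGPTL4, which inhibits lipoprotein lipase, stood at 8.51 and 8.78 with sh50, against 6.35 and 6.91 with shGFP. ARRDC4, an arrestin-like sensor of glucose use, stood at 10.08 and 10.43 with sh50, against 8.62 and 8.59 with shGFP. LOX, which crosslinks collagen, stood at 16.04 and 13.78 with sh50, against 13.23 and 13.68 with shGFP. PGAM1, a glycolytic mutase, was on the other side, at 11.67 and 9.997 with sh50, against 12.59 and 12.61 with shGFP.

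Polyamine genes, the pathway of the gene in the series title, showed no common direction. Of 24 measured, 10 had a higher and 14 a lower mean, 4 lay above both controls and 3 below, beside 21.8% and 22.1% of all genes, and the medians were 0.12 and -0.20. ODC1, the first enzyme of polyamine synthesis, stood at 13.47 and 10.47 with sh50, against 13.996 and 13.002 with shGFP. ATP13A3, a polyamine transporter, stood at 14.12 and 12.90 with sh50, against 14.96 and 14.05 with shGFP. SLC18B1, a vesicular polyamine transporter, stood at 8.85 and 8.93 with sh50, against 7.89 and 8.17 with shGFP, and was the member with the smallest spread relative to its difference (0.85 ± 0.21 SE, limma, adjusted p = 0.475). OAZ2, an antizyme that directs ODC1 to degradation, had differences of 0.74 and 0.39. ODC1 was lowest on sh50 2 and overlapped the controls on sh50 1. Chosen after their values were seen, the spermine synthase gene SMS stood at 15.34 and 15.09 with sh50, against 15.71 and 15.77 with shGFP, and the spermine oxidase gene SMOX at 6.30 and 6.18 with sh50, against 5.93 and 5.81 with shGFP.

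Targets of p53 and genes of the stress responses went both ways. Of 28 p53 targets 4 lay above both controls and 6 below, beside 21.8% and 22.1% of all genes, with medians of 0.26 and -0.14. DDB2, which recognises ultraviolet damage, stood at 8.03 and 7.40 with sh50, against 8.66 and 9.49 with shGFP. CCNG1, a cyclin induced by p53, stood at 10.87 and 11.36 with sh50, against 11.58 and 12.81 with shGFP. RRM2B, a ribonucleotide reductase subunit, stood at 11.54 and 12.31 with sh50, against 10.22 and 11.79 with shGFP. DDB2 and CCNG1 lay below both controls, opposite to TP53INP1. Of 37 genes of the unfolded protein and integrated stress responses, 6 lay above both controls and 5 below, beside 21.8% and 22.1% of all genes. DDIT4, an inhibitor of mTORC1 signalling, stood at 10.03 and 10.53 with sh50, against 9.86 and 9.06 with shGFP. HERPUD1, of the degradation of misfolded proteins, stood at 10.89 and 10.55 with sh50, against 9.42 and 10.43 with shGFP. SLC7A5, an amino acid transporter, and PHGDH, the first enzyme of serine synthesis, had differences of -0.10 and -1.46, and of -0.12 and -1.41. For each of these, the difference was above 1 in size in only 1 pair of arrays.

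The remaining lists had small medians. Of 25 genes of polycomb and DNA methylation complexes 11 lay below both controls and 3 above, beside 22.1% and 21.8% of all genes, with medians of -0.04 and 0.02. EZH2, the methyltransferase of polycomb repressive complex, stood at 9.25 and 8.21 with sh50, against 9.97 and 10.34 with shGFP. RBBP4, a histone chaperone, stood at 12.40 and 11.81 with sh50, against 13.35 and 13.65 with shGFP. SUZ12, a partner of EZH2, stood at 10.50 and 10.15 with sh50, against 11.07 and 11.33 with shGFP, and UHRF1, which guides maintenance methylation, had differences of -0.57 and -2.54. All 4 were lowest on sh50 2, and UHRF1 is also a member of the replication list. Of 26 cholesterol synthesis genes 3 lay above both controls and 2 below, beside 21.8% and 22.1% of all genes, with medians of -0.18 and 0.33. LSS, which forms lanosterol, had differences of 0.35 and 1.19, HSD17B7 of -0.77 and -0.32, INSIG1, which retains the sterol sensor, of -1.60 and 0.09, and HMGCS1, an early enzyme, of -0.32 and 1.46.

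Of 34 oxidative phosphorylation genes 9 lay above both controls and 5 below, beside 21.8% and 22.1% of all genes, with medians of 0.17 and 0.06. NDUFB5, a subunit of complex I, stood at 9.43 and 9.48 with sh50, against 8.78 and 8.73 with shGFP. COX5B, of complex IV, and NDUFA2, of complex I, had mean differences of 0.60 ± 0.20 and 0.49 ± 0.16 (SE). NDUFA9, another subunit of complex I, was on the other side, at 9.37 and 8.93 with sh50, against 9.79 and 10.32 with shGFP. Of 35 ribosomal protein genes 31 had a lower mean and 20 lay below both controls, beside 22.1% of all genes, but the medians were only -0.09 and -0.28. Only 1 of them had a lower mean with an unadjusted p under 0.05 (limma), beside 4.99% of all genes. RPL12 stood at 12.09 and 11.86 with sh50, against 12.49 and 12.76 with shGFP. RPS23 and RPL11 had mean differences of -0.60 ± 0.25 and -0.47 ± 0.26 (SE), and RPS28 had 0.49 ± 0.52. These genes have many processed pseudogenes, so their probes may read other loci.

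**Figure D4:**
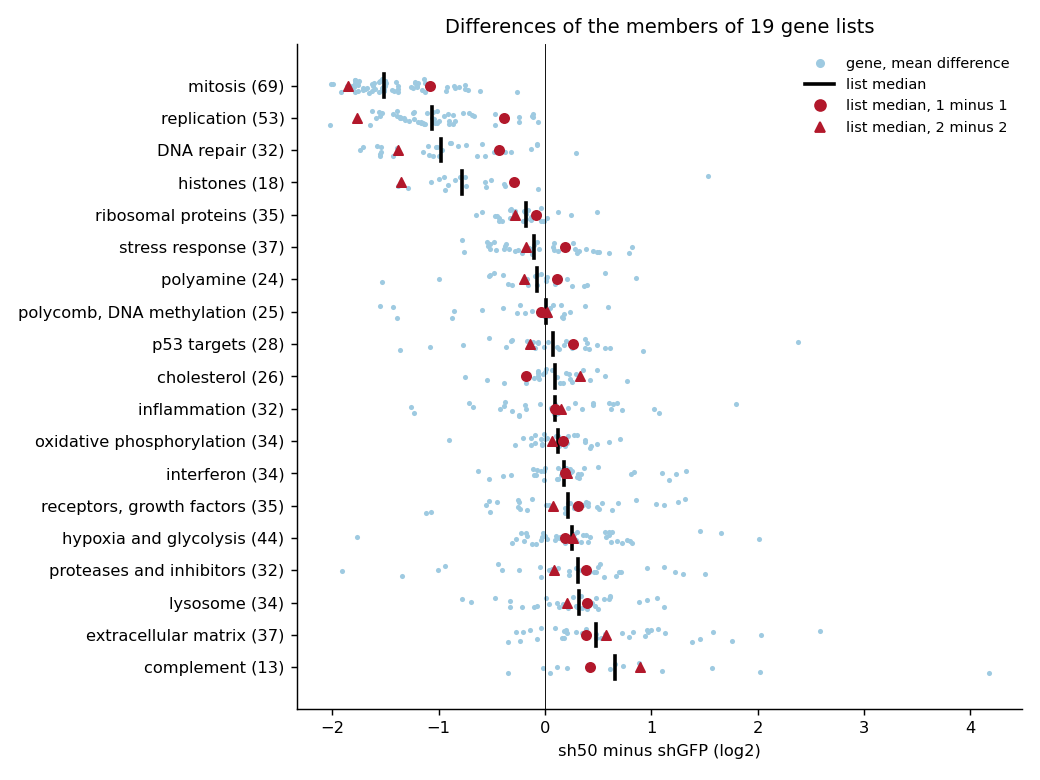
Mean differences (sh50 minus shGFP, log2, horizontal) of the measured genes of 19 lists, with the number measured in brackets, the list median as a bar, and the medians of the same-number differences as a circle (1 minus 1) and a triangle (2 minus 2). The 4 lists of mitosis, replication, DNA repair and histones have medians between -1.51 and -0.78, and the complement list has the highest at 0.66.

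A set of genes had large same-number differences of opposite sign. Of all genes 8 were above 1 in number 1 and below -1 in number 2, and 2 the other way round. SLC7A11, the cystine transporter, stood at 11.11 and 11.53 with sh50, against 8.15 and 13.71 with shGFP, so its differences were 2.95 and -2.18. The sh50 arrays were nearly level, and the shGFP arrays lay on either side of them. THBS1, thrombospondin 1, stood at 10.29 and 9.09 with sh50, against 8.39 and 10.31 with shGFP. GREM1, an antagonist of bone morphogenetic proteins, had differences of 1.54 and -1.28, STC2, a secreted glycoprotein, of 1.30 and -1.52, and the keratin-associated KRTAP1-5 of 1.75 and -2.18. On the reverse side, SCD, the desaturase of fatty acids, stood at 12.72 and 14.87 with sh50, against 14.16 and 13.78 with shGFP. FASN, the fatty acid synthase, had differences of -0.70 and 0.84. The signs that SCD and FASN share were set by the rule that chose these genes. The nuclear receptor NR4A2 stood at 11.02 and 6.23 with sh50, against 12.09 and 5.06 with shGFP, a gap between numbers 1 and 2 in both groups. CD74, the invariant chain, and ARSJ, a sulfatase, had differences of -0.76 and 0.87, and of -0.77 and 0.68. Across these genes the mean differences lay between -0.22 and 0.39, with SEs as large or larger.

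The sh52 arrays are set beside these genes only to show where sh50 differed. SAT1 on the arrays labelled sh52 1 and sh52 2 stood at 10.83 and 7.84, the first the highest of the 6 arrays, so directions for sh52 go by labels that this gene does not bear out. Both hairpins were compared with the same shGFP arrays, so a shared side is not independent. Of the 12 highest genes 9 had both sh52 arrays above both shGFP arrays, beside 20.8% of all genes, and the exceptions were TP53INP1, SFRP2 and DNAI3. Of the 12 lowest genes 10 had both sh52 arrays below both controls, beside 22.2% of all genes, and the exceptions were GABRQ and MICAL2. The sh50 arrays lay beyond both sh52 arrays for TNFRSF11B, TP53INP1, TNFRSF21, DNAI3, TFAM, MICAL2 and DENND6A. Over all genes 19.6% had both sh50 arrays above both sh52 arrays and 16.1% below. The ranked genes were chosen for extreme sh50 values, which favours sh50 lying beyond sh52. Their count therefore cannot be weighed against these shares. TNFRSF11B had the largest gap relative to its spread, at 8.72 and 8.70 with sh50, against 6.51 and 7.15 with sh52, a difference of 1.89 ± 0.27 (SE, limma, adjusted p = 0.493). TFAM stood at 7.62 and 6.39 with sh50, against 7.82 and 8.52 with sh52 (-1.16 ± 0.44 SE, adjusted p = 0.775). PLK1 differed by -0.02 ± 0.47 (SE) between sh50 and sh52. Over all features 0 of 33764 (0%) passed between sh50 and sh52 by limma, and 2138 (6.33%) had an unadjusted p under 0.05.

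Markers of the cell line and of other cell types were read on the same arrays. VIM, the mesenchymal filament protein, stood at 15.78 and 15.54 with sh50, against 15.99 and 16.10 with shGFP, and CD44, a hyaluronan receptor, at 14.57 and 13.36 with sh50, against 14.47 and 14.60 with shGFP. EGFR was measured at 9.71 and 9.19 with sh50, against 10.02 and 9.92 with shGFP, and NES at 7.28 and 6.76 with sh50, against 7.67 and 6.20 with shGFP. GFAP, the astrocyte filament, lay just above the filter at 4.41 and 4.56 with sh50, against 4.46 and 4.46 with shGFP. SOX2, S100B, OLIG2, CDKN2A and MTAP were below the filter on average. Mesenchymal markers were thus well above the filter, and glial ones near or below it, in both groups. The mesenchymal markers differed in direction. CHI3L1, given with the matrix genes, lay above both controls, VIM lay below both, and CD44 overlapped them. Of 8 neuronal markers 4 were measured, and MAP2, SNAP25 and GAD1 lay above both controls (21.8% of all genes). SYT1, the remaining measured marker, overlapped the controls, with differences of -0.36 and 0.15. MAP2, a protein of dendritic microtubules, stood at 6.70 and 7.60 with sh50, against 5.63 and 5.93 with shGFP. The list's summed linear level was 714 and 939 with sh50, against 374 and 522 with shGFP. With sh52 the sum was 1132 and 1035, so a raised sum was not particular to sh50. STMN2, RBFOX3 and NEFL were below the filter. All arrays are of the same cell line, and the source of the raised sum was not tested. Of 8 immune markers 3 were measured, with CD68 at 15.67 and 15.58 with sh50, against 15.61 and 15.34 with shGFP, and PTPRC, CD14, ITGAM and CD3E below the filter. Of 5 measured epithelial markers 0 separated the groups, KRT8 being at 6.94 and 7.48 with sh50, against 6.79 and 7.07 with shGFP, and CDH1 and KRT19 were below the filter. Of 6 endothelial markers 3 were measured, KDR lay above both controls, and PECAM1, CDH5 and VWF were below the filter.

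Small nucleolar RNA genes, singled out after their values were seen, were counted beside the other RNA classes. These RNAs guide the chemical modification of ribosomal and spliceosomal RNA, and most are cut from introns of host genes. Of 176 measured, 84 (47.7%) had both sh50 arrays above both controls and 10 (5.68%) below. Protein-coding genes stood at 23.1% above and 22.5% below, and lncRNA genes at 14.9% and 17.6%. Precursor features of miRNA genes went the other way, with 31 of 398 (7.79%) above and 117 (29.4%) below, at medians of only -0.15 and -0.06. SNORD116 is a cluster of similar snoRNA copies in the imprinted Prader-Willi region of chromosome 15. Of 18 measured copies 17 lay above both controls, 11 had both differences above 1, and the medians were 1.69 and 1.36. SNORD116-15 stood at 13.73 and 12.88 with sh50, against 11.53 and 11.36 with shGFP. SNORD116-24 stood at 11.99 and 11.29 with sh50, against 9.77 and 9.58 with shGFP. SNORD116-11 was the exception, with differences of -0.04 and 0.27. The copies share sequence, so their features may read each other and are not separate observations, and adjusted p-values lay between 0.475 and 0.981 (limma). Leaving SNORD116 out, 67 of 158 snoRNA genes (42.4%) still lay above both controls. Both sh52 arrays lay above the same controls for 79 of the 176 and 62 of the 158, so this was not particular to sh50. For 17 of the 18 copies both sh52 arrays lay above both shGFP arrays too, beside 20.8% of all genes.

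**Figure D5:**
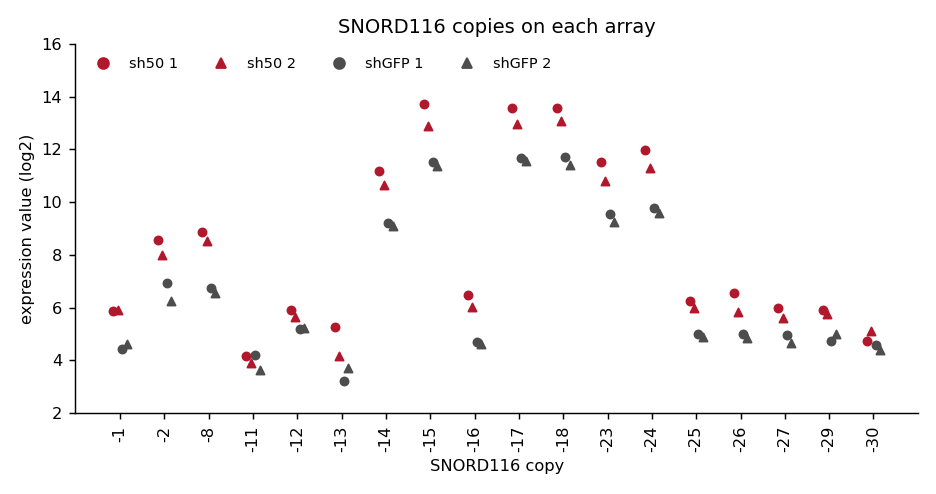
Expression values (log2, vertical) of the 18 measured SNORD116 copies (horizontal, by copy number) on the 4 arrays, with sh50 in red and shGFP in grey, circles for number 1 and triangles for number 2. The red points lie above the grey ones for 17 copies, and copy 11 is the exception.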

How the data were processed

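Total RNA of each sample was read on an Affymetrix transcriptome array. Per the labels, the authors ran RMA in Expression Console on core exons, and the deposited values are taken as log2 expression. The submitters' processing notes also name Transcriptome Analysis Console, without a version. The log base is not given in the sources used here and was taken as 2. Of 70523 features 67528 were transcript clusters, and the 33764 at or above the median mean were kept. Platform annotation gave 1 symbol to 23781 of the 67528 and several to 1543, and 42204 were unnamed here. Coordinates of features are not given because the build is not named.

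Group means were fitted over all 6 arrays with limma 3.58.1 in R 4.3.3 (3 residual and 2.67 prior degrees of freedom), two-sided, with Benjamini-Hochberg adjustment over all kept transcript clusters. The fit was tested on simulated data with arrays drawn independently of each other. In the real data, sh50 and shGFP arrays of the same number deviated together (r = 0.475), which the simulation did not include. Members, gene lists (24) and the rule for named genes were chosen with earlier results of these data known. Some lists share genes, among them UHRF1, LOX and DDIT4, so the lists are not separate. That rule took SAT1, the 12 protein-coding genes each way with the largest smaller same-number difference and no overlap, the 5 each way with the smallest p, 4 members per list with the largest mean difference, 5 each way of opposite sign and the cell line's markers. Alternatives were the replicate number as a block, other filters, normalizations and variance settings, the mean of a gene's features, only the 4 arrays compared, and each array left out in turn. A replicate block within the 4 arrays was added after the data were seen. Python 3.11.15 with pandas 2.3.3, numpy 2.4.6 and matplotlib 3.10.9 was used for counts and figures.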

Additional observations from a re-analysis of the deposited data

How the results depend on the processing

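The count of called transcript clusters was 0 under every alternative, with smallest adjusted p-values from 0.0651 (replicate block within the 4 arrays) to 0.9998 (without sh50 2). The count with an unadjusted p under 0.05, 2784, was 4507 with no filter, 1669 with a filter at the 75th percentile, and 1508 to 3085 with an array left out (1508 without sh50 2, 1605 without shGFP 1). With the replicate block over 6 arrays it was 3503, and with the replicate block within the 4 arrays, chosen after seeing the data, 4845. The sh50 and shGFP arrays of the same number deviated together over genes (r = 0.475), but with only 2 numbers the samples share a number and nothing more is known of a pairing. With both differences beyond 1 required, 127 genes were higher and 121 lower in place of 3130 and 3176, and with no filter 4779 lay below both controls.

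With each array left out in turn, list medians ran from -2.08 to -0.85 for mitosis, 0.28 to 0.77 for matrix, -0.036 to 0.65 for proteases, 0.19 to 0.32 for hypoxia and glycolysis, 0.030 to 0.32 for interferon, -0.35 to 0.69 for inflammation, 0.11 to 0.39 for lysosome, -0.034 to 0.45 for receptors and growth factors, 0.0082 to 0.24 for oxidative phosphorylation, -0.24 to 0.28 for p53 targets and -0.12 to 0.058 for polycomb. With no filter the complement median was 0.16 and the interferon median 0.154. With a filter at the 75th percentile the medians were 0.257 for interferon, 0.0177 for inflammation and -0.215 for polycomb. With centred arrays interferon stood at 0.160. Of the 24 lists, 6 kept a negative median under every alternative, mitosis and replication among them. The causes of these moves were not tested.

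The mean differences of 26 named genes turned sign with an array left out. Their ranges were -0.86 to 0.16 for SAT1, -2.92 to 0.22 for TFPI2, -4.31 to 1.79 for IL11, -3.29 to 0.82 for CSF3, -0.20 to 1.33 for HMGCS1, -0.69 to 3.19 for INHBA, -0.21 to 1.19 for RPS28, -1.17 to 0.031 for CD44, -0.65 to 0.81 for NES and -0.048 to 0.098 for GFAP. Among other cell types' markers they were -0.46 to 0.25 for SYT1, -0.19 to 0.029 for TYROBP, -0.051 to 0.17 for EPCAM, -0.099 to 0.010 for CLDN4, -0.56 to 0.15 for TEK and -0.23 to 0.091 for CLDN5. Among genes chosen for opposite signs they were -2.39 to 3.16 for SLC7A11, -1.49 to 1.06 for KRTAP1-5, -1.14 to 0.92 for STC2, -1.46 to 1.72 for GREM1, -0.62 to 1.31 for THBS1, -1.25 to 0.90 for SCD, -3.46 to 3.56 for NR4A2, -0.36 to 0.47 for CD74, -0.56 to 0.69 for FASN and -1.01 to 0.92 for ARSJ.

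On arrays the limit is signal over background, and values near the filter of 3.98 lie closest to it. Each group has 2 arrays, so a missed threshold does not show that groups are alike.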
